A study of Mus musculus with 4 samples.

Results

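The adult hemoglobin genes Hba-a1, Hba-a2, Hbb-bs and Hbb-bt, together with Alas2, were followed as a readout of blood RNA in the mouse brain, and these 5 genes were taken by symbol from the 32285 genes of the count tables. The data were spatial transcriptomes of 4 sections of fresh frozen brain, each 10 µm thick, from mice carrying 1 inactive copy of the neurofibromin gene (Nf1+/-), kept on a C57/BL6 background. All sections had this genotype, no wild-type section was used here, and the labels give neither the age of the mice nor whether the sections came from different animals, so n counts sections and every p-value measures only the spread between them. Each barcoded spot of a Visium slide captures the mRNA of the several cells above it, and the number of unique molecular identifiers (UMIs) counts captured molecules near their 3′ ends. The study's methods describe perfusion with saline for other brains but do not state it for these.

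Hemoglobin is a tetramer of alpha and beta chains, each holding a heme. In adult mice the alpha chains come from the near-identical neighbours Hba-a1 and Hba-a2, and in the C57 background the beta chains come from Hbb-bs and Hbb-bt. Mature red cells have no nucleus and keep leftover globin mRNA, most abundantly in the youngest, the reticulocytes. Alas2 is the erythroid form of the enzyme that starts heme synthesis, and its housekeeping counterpart in other tissues is Alas1. Because reads from near-identical copies can be assigned to either copy, the split within a chain is uncertain and the sum over a chain is the firmer value. Within a spot, fewer red cells and less globin mRNA per red cell cannot be told apart.

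As background, the 250 bases upstream of the annotated starts of the globin genes and Alas2 are shown, from RefSeq on the GRCm38.p6 build (mm10). A link between these sequences and the levels in spots was not tested. Capitals mark 4 short motifs found on either strand, and marked motifs may overlap. The motif that GATA factors bind was searched as AGATAA, also allowing T for the base at its start, G for the base at its end, or both of these changes together. The motif of the Krüppel-like factors was searched as CACCC, the binding motif of nuclear factor Y was searched by its letters CCAAT, and the box that positions transcription starts was searched by the letters TATAA. The windows lie at chr11:32283422-32283671 on the plus strand for Hba-a1, at chr7:103827929-103828178 on the minus strand for Hbb-bs, at chr7:103813924-103814173 on the minus strand for Hbb-bt and at chrX:150547167-150547416 on the plus strand for Alas2, and each is printed 5′ to 3′ along its gene.
Hba-a1: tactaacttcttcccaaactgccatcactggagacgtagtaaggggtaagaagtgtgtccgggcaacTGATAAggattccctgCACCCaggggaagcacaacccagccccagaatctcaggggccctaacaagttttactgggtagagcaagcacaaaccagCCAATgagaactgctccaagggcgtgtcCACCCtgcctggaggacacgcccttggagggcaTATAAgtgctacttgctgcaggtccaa
Hbb-bs: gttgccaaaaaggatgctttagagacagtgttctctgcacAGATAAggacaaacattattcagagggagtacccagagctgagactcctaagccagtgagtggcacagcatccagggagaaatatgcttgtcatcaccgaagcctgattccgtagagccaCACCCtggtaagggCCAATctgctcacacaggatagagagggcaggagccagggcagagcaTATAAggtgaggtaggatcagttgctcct
Hbb-bt: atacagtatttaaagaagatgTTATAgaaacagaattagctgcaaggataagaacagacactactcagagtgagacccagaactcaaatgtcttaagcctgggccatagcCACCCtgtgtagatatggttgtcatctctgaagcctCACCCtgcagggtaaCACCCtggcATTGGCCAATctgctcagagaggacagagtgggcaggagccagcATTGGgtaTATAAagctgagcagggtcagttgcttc
Alas2: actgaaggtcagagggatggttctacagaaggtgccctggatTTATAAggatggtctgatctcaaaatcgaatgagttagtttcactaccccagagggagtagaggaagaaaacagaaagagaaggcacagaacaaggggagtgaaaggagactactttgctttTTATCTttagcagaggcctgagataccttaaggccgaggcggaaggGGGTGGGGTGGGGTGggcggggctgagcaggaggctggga

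The Hba-a2 window, at chr11:32296242-32296491 on the plus strand, is not printed because it is nearly the same text: the 300 bases around the starts of Hba-a1 and Hba-a2 shared an unbroken run of 297 bases. Hbb-bs and Hbb-bt differed more, with a longest shared run of 14 bases in windows of the same length. A GATA motif stood once in the windows of Hba-a1, Hba-a2, Hbb-bs and Alas2 and did not stand in that of Hbb-bt. Over the same 250 upstream bases of 32851 promoters, 26.5% held a GATA motif, 52.0% held CACCC, 33.8% held CCAAT, 22.8% held TATAA and 11.8% held both GATA and CACCC. Each motif is thus common and its presence here is a description.

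The sections held 1431 to 2358 spots with at least 500 UMIs and 19261103 to 37001945 UMIs in these spots. The median depth per spot was lowest in section 3, at 8862.5 UMIs, against 12232 to 15296.5 in the others. The sections shared 414 to 1978 barcodes by pair, since barcodes name places on the slide, and any pair of sections differed by more than sampling noise over genes (the smallest chi-square statistic was 14.5 for each degree of freedom).

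Globin mRNA was scarce in these brains and uneven between sections. In all, 1724 UMIs of the 4 globins were counted, 579 of alpha and 1145 of beta chains. Their summed level in counts per 1000000 UMIs (CPM) was 9.50 in section 1, 14.9 in section 2, 36.6 in section 3 and 7.48 in section 4. Section 3 was thus the highest and section 4 the lowest, 4.90-fold apart, with a mean of 17.1 ± 13.4 CPM (SD, n = 4). Without section 3 the mean was 10.6 ± 3.83 CPM (SD, n = 3). Section 3 was also the shallowest per spot, and the part of depth in this difference was not tested.

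Hbb-bs, the more abundant beta globin, led in every section. It had 109, 310, 495 and 70 UMIs in sections 1 to 4, or 4.64, 8.38, 22.5 and 3.63 CPM. The exact 95% Poisson interval for section 3 was 20.5 to 24.6 CPM and did not meet that of section 2, the next highest, at 7.47 to 9.36 CPM. These intervals cover counting error only.

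Hbb-bt, the other adult beta globin, was the rarest of the 4 in sections 1 to 3, with 21, 44, 76 and 20 UMIs. This was 0.89 CPM in section 1, 1.19 in section 2, 3.45 in section 3 and 1.04 in section 4. Section 3 again stood above the others, which lay within each other's counting intervals.

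Among the alpha globins, Hba-a2 had 52, 121, 109 and 41 UMIs, or 2.22, 3.27, 4.95 and 2.13 CPM. Hba-a1 had 41, 76, 126 and 13 UMIs, or 1.75, 2.05, 5.72 and 0.67 CPM. Hba-a2 was therefore the higher copy in sections 1, 2 and 4 and Hba-a1 in section 3. As means over sections the order was Hbb-bs (9.79 ± 8.71 CPM), Hba-a2 (3.14 ± 1.31), Hba-a1 (2.55 ± 2.20) and Hbb-bt (1.64 ± 1.21; SD, n = 4 for each), on a scale of molecules counted at the 3′ end and not per length. Without section 3 the means were 5.55 (Hbb-bs), 2.54 (Hba-a2), 1.49 (Hba-a1) and 1.04 CPM (Hbb-bt), in the same order. The ranges of mean ± SD of neighbours in this order overlapped, and no test was run on it. Hbb-bs was first in each section, whereas the places of the others changed between sections.

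Alas2 was at the edge of detection. It had no UMI in sections 1 and 4, which allows a level of up to 0.128 and 0.156 CPM (3 counts), 1 UMI in section 2 and 3 UMIs in section 3. Of the 3 UMIs of section 3, 2 lay in the spot with the most globin UMIs of the whole series. Alas2 did not pass the filter on low counts in any comparison and received no fold change.

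**Figure D1:**
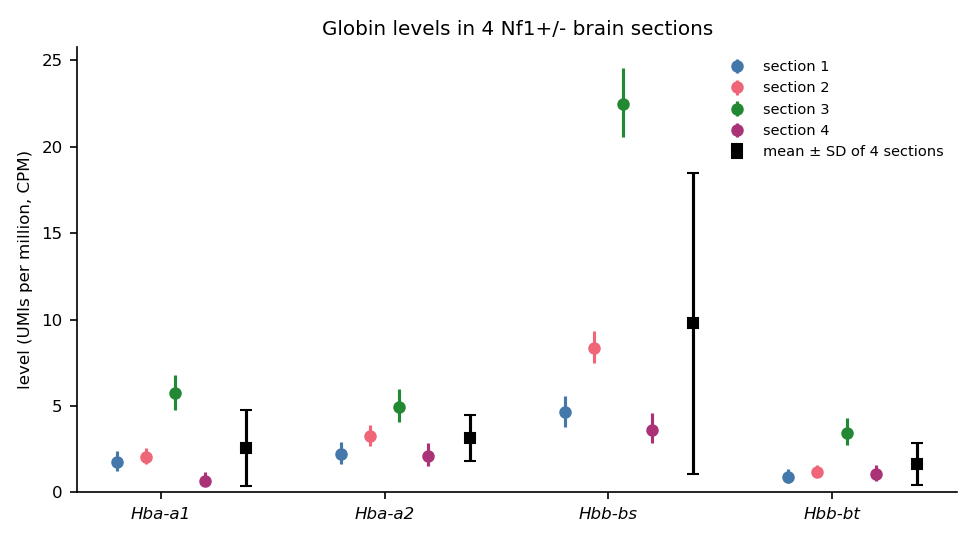
Level of each globin gene (vertical axis, CPM) in sections 1 to 4 (coloured points with exact 95% Poisson intervals) and the mean ± SD of the 4 sections (black squares). Section 3 is the highest for all 4 genes, from 3.45 CPM for Hbb-bt to 22.5 CPM for Hbb-bs, and the SD of Hbb-bs (8.71 CPM) is close to its mean (9.79 CPM).

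This variation was large for the tissue. The coefficient of variation over the 4 sections was 86.2% for Hba-a1, 41.8% for Hba-a2, 89.0% for Hbb-bs and 73.7% for Hbb-bt. Over the 14156 genes with a mean of at least 1 CPM its median was 9.88% and its 90th percentile 26.1%. Low counts raise this measure, and counting error was not subtracted from it.

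Other genes place these levels in context. The globins of brain tissue itself were at 54.8 ± 4.21 CPM for cytoglobin (Cygb) and 16.0 ± 2.46 CPM for neuroglobin (Ngb; SD, n = 4 for both). Cygb was above the summed blood globins in each section, whereas Ngb, at 19.2, 14.2, 16.7 and 13.9 CPM, was below them in sections 2 and 3. The embryonic globins Hba-x, Hbb-bh1 and Hbb-bh2 had no UMI, and Hbb-y had 1 to 10 UMIs per section. Of 16 erythroid genes in the tables, 3 had no UMI in any section, namely Slc4a1 (the band 3 anion exchanger), Gata1 (the erythroid transcription factor) and Hemgn, while Klf1, an erythroid transcription factor, had 20 in all. Most of the list's summed 108 to 121 CPM came from Bpgm and Tspan33, at 67.5 ± 5.55 and 25.2 ± 0.57 CPM, and the list's sum varied far less between sections than the globins did. The 8 heme synthesis genes summed to 226 to 256 CPM, among which Alas1 had 41.3 ± 5.83 CPM against the near absence of Alas2.

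Alpha and beta chains were present in unequal numbers. The ratio of alpha to beta UMIs was 0.715 in section 1, 0.556 in section 2, 0.412 in section 3 and 0.600 in section 4, a mean of 0.571 ± 0.126 (SD, n = 4). Alpha UMIs were thus fewer than beta UMIs in all 4 sections. The alpha share of globin UMIs was 41.7% in section 1, with an exact 95% binomial interval of 35.2 to 48.5%, and 29.2% in section 3, with an interval of 26.0 to 32.4%, so these sections differed beyond counting error. A red cell deposits many molecules in 1 spot, so the UMIs are not independent and these intervals are too narrow.

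Globin UMIs were concentrated in few spots. Between 86.8% and 93.3% of spots had none, and spots with a single globin UMI made up a further 5.03 to 9.84%. Spots with at least 10 globin UMIs numbered 2, 4, 6 and 1 in sections 1 to 4 and held 36.8%, 15.4%, 65.3% and 8.33% of the globin UMIs of their section. The 1% of spots with the most globin UMIs held 55.2%, 35.0%, 73.3% and 36.1%, a mean of 49.9 ± 18.1% (SD, n = 4). Sections 1 and 3 were therefore dominated by a handful of spots, and sections 2 and 4 were not.

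For single genes the concentration was among the strongest measured. In section 1, the highest spot held 30.8% of Hba-a2 UMIs and 22.0% of Hbb-bs UMIs, places 1 and 2 among 12904 genes with at least 50 UMIs, whose median was 0.87%. In section 3, the highest spot held 43.7% of Hba-a1, 37.2% of Hbb-bs, 31.2% of Hba-a2 and 27.6% of Hbb-bt UMIs, places 3 to 6 among 12614 genes. In section 2 the places were 14 (Hba-a1), 24 (Hbb-bs) and 36 (Hba-a2) among 13484 genes, and Hbb-bs was at place 3 of 12420 in section 4. Rare genes reach high values of this measure more easily, and the ranks were not adjusted for abundance.

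**Figure D2:**
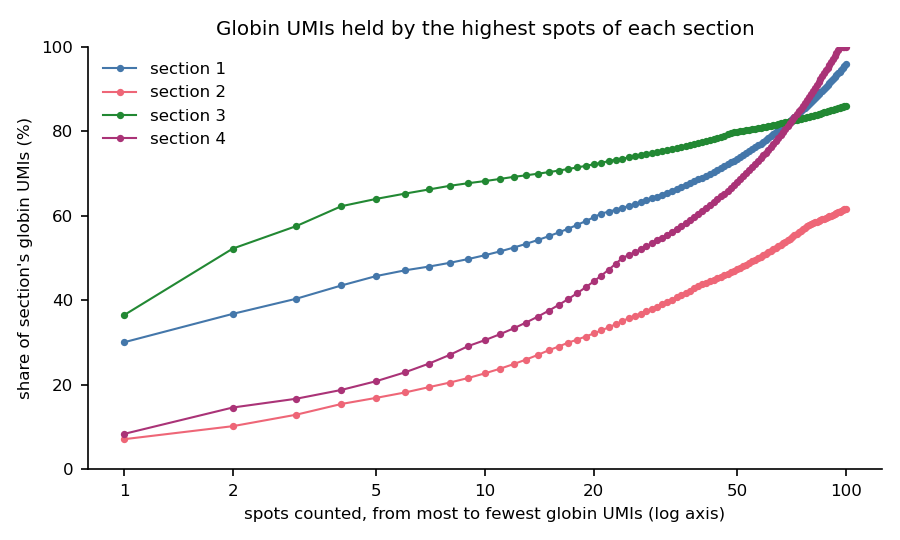
Cumulative share of a section's globin UMIs (vertical axis, percent) held by its highest spots, counted from the spot with the most globin UMIs (horizontal axis, log scale, up to 100 spots), with 1 line per section. The first spot holds 36.5% in section 3 and 30.0% in section 1 but 7.08% in section 2 and 8.33% in section 4.

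The highest spots differed in what else they held. In section 3 the highest spot had 55 Hba-a1, 34 Hba-a2, 184 Hbb-bs and 21 Hbb-bt UMIs among 9369 UMIs, so 3.14% of its molecules were globin. It had no UMI of the 10 meningeal fibroblast markers or of Cldn5 and Flt1 (endothelial genes), and had 42 UMIs of the neuronal gene Snap25. The next spots of section 3, with 127 and 43 globin UMIs, also had no meningeal marker UMI and had 56 and 72 Snap25 UMIs. In section 1 the highest spot had 22 Hba-a1, 16 Hba-a2, 24 Hbb-bs and 5 Hbb-bt UMIs among 1993 UMIs (3.36%), with 8 meningeal marker UMIs, 75 UMIs of the meningeal gene Ptgds and none of Snap25. The highest spot of section 2, with 39 globin UMIs, had 19 meningeal marker UMIs, 4 of Cldn5 and Flt1 and 13 of Snap25. The highest of section 4 had 12 globin UMIs and 6 meningeal marker UMIs among 23030 UMIs. It also had 78 Snap25 UMIs, more than the highest spot of section 3. The single richest spot thus held meningeal markers in sections 1, 2 and 4 and lacked them in section 3. The spots that followed did not keep this division: the next in section 2 (17 globin UMIs) and in section 4 (9 globin UMIs) had no meningeal marker UMI, and spots 4 and 5 of section 3 (38 and 14 globin UMIs) had 4 and 5.

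Without the 2 highest spots of each section, the globin level was 6.01, 13.4, 17.5 and 6.40 CPM in sections 1 to 4, and the highest and lowest sections lay 2.91-fold apart in place of 4.90-fold. Without the top 1% of spots it was 4.30, 9.75, 9.92 and 4.82 CPM, 2.31-fold apart. Sections 2 and 3 were then alike in level and stood above sections 1 and 4. This choice removes the spots that were high by construction, so it is a description.

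Because sections differed in depth, the share of spots with a UMI was also read after spots with at least 5000 UMIs were thinned to 5000. The share with any globin UMI was 7.09%, 13.2%, 9.24% and 6.71% as deposited and 2.94%, 4.74%, 5.03% and 3.35% after thinning. Section 2 had the largest share as deposited and section 3 after thinning. For Hbb-bs the thinned shares were 1.64%, 3.66%, 3.54% and 1.31%, and for Hba-a1 they were at most 1.08%.

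The chains were then compared within spots. The Pearson correlation between the depth-corrected alpha and beta UMIs of a spot was 0.975 in section 1, 0.721 in section 2, 0.987 in section 3 and 0.200 in section 4, over 1431 to 2358 spots that share a library. Without the 2 highest spots of each section it was 0.619, 0.488, 0.757 and 0.078, so the correlation in section 4 was weak with or without them. Of the spots with an alpha UMI, 19.6 to 35.3% also had a beta UMI, whereas 3.61 to 8.08% of spots without an alpha UMI had one.

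To test the alpha chains on spots chosen without them, spots were ranked within a section by how far their Hbb-bs and Hbb-bt UMIs exceeded the number predicted from depth, and the top 10% were called beta-globin-high. The groups held 154, 236, 229 and 143 spots, of which 82, 10, 61 and 84 had no beta UMI because fewer than 10% of spots had one. The spots added in this way were shallow. The median depth was 5273, 14730.5, 10050 and 2984 UMIs inside and 15210, 15361, 8803 and 12663.5 outside. It was thus far lower inside in sections 1 and 4, slightly lower in section 2 and higher in section 3. Results are also given for the 59 to 226 spots per section with at least 1 beta UMI, whose median depth was 12852 to 16551 UMIs. This rule, like that of at least 3, was chosen after seeing the data. UMIs were summed over these spots and over the others in each section and tested with edgeR (quasi-likelihood, blocked by section, p-values adjusted by Benjamini-Hochberg). Hba-a1 was 4.54 ± 0.33 higher on the log2 scale (SE, n = 4, adjusted p = 1.7e-08) and Hba-a2 3.70 ± 0.27 higher (adjusted p = 1.7e-08). Both of the 2 genes tested were called higher, against 0.392% of 15068 genes.

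Hba-a1 was at 20.3, 12.6, 43.9 and 1.89 CPM inside the beta-globin-high spots of sections 1 to 4 and at 0.54, 0.87, 1.02 and 0.60 CPM outside. Hba-a2 was at 18.9, 15.5, 34.8 and 11.3 CPM inside and at 1.13, 1.89, 1.28 and 1.59 CPM outside. Every section was thus higher inside, and the groups did not overlap for either gene. The Hba-a1 fold was 37.3, 14.4, 43.1 and 3.12 in sections 1 to 4, the last with 2 UMIs inside, so its size differed widely between sections. The share of all genes whose groups did not overlap is not given, here or below, so such statements are descriptions of single genes. When only spots with at least 1 beta UMI were taken, the differences were 4.51 (Hba-a1, edgeR adjusted p = 3.0e-08) and 3.81 (Hba-a2, edgeR adjusted p = 2.1e-08), and with at least 3 beta UMIs they were 7.47 and 6.42. Spots with at least 3 beta UMIs numbered only 6, 23, 15 and 5 in sections 1 to 4. Those of section 4 had no Hba-a1 UMI, so Hba-a1 was not higher there. In the mirror comparison, with spots picked on alpha chains, Hbb-bs was 4.25 higher (edgeR adjusted p = 5.6e-21) and Hbb-bt 4.08 higher (edgeR adjusted p = 6.3e-12). Under this pick 655 genes were called higher and 470 lower, against 59 and 24 in the beta-globin-high spots. An alpha UMI was found in only 47, 131, 68 and 46 spots of sections 1 to 4, fewer than the beta-globin-high spots of each section.

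The split between the alpha copies was also read by the beta globin of the spot, as a description with no test. Hba-a1 made up 34.7% of alpha UMIs in spots without a beta UMI (76 of 219, exact 95% interval 28.4 to 41.4%), 33.3% in spots with 1 or 2 beta UMIs (29 of 87, 23.6 to 44.3%) and 55.3% in spots with at least 3 (151 of 273, 49.2 to 61.3%). In spots with at least 3 beta UMIs the share was 52.1% in section 1, 56.4% in section 2 and 57.2% in section 3, whereas section 4 had 4 alpha UMIs there, none of Hba-a1. In spots without a beta UMI it was 37.5%, 31.5%, 44.4% and 28.6%. The share was therefore higher in the globin-rich spots of sections 1, 2 and 3 and not in section 4, but the intervals of the single sections overlapped in sections 1, 3 and 4. Of the 273 alpha UMIs of the 49 globin-rich spots, 166 came from section 3 and 89 from 1 spot of it, so the pooled intervals rest on few spots and a difference is not shown. The assignment of reads to these near-identical copies was not examined here.

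The beta copies were read in the same way. Hbb-bs made up 85.6% of beta UMIs in spots without an alpha UMI (exact 95% interval 82.3 to 88.4%), 83.7% with 1 or 2 (76.8 to 89.1%) and 87.1% with at least 3 (83.7 to 90.1%). Its share per section was 83.8%, 87.6%, 86.7% and 77.8%. The intervals overlapped between strata and between sections.

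**Figure D3:**
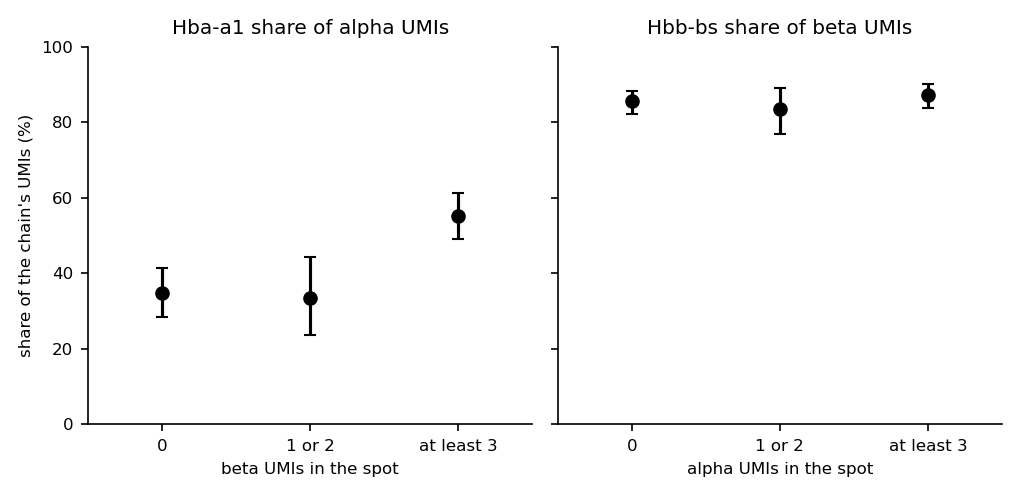
Share of a chain's UMIs that came from its first copy (vertical axis, percent, with exact 95% binomial intervals, all sections pooled) by the number of UMIs of the other chain in the spot (horizontal axis). The Hba-a1 share is 34.7%, 33.3% and 55.3% (left), and the Hbb-bs share is 85.6%, 83.7% and 87.1% (right).

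The globins were next read in spots rich in mRNA of meningeal fibroblasts, cells of the brain's borders, without the positions of spots. Spots were ranked in the same way on 10 meningeal fibroblast markers (Dcn, Col1a1, Col1a2, Col3a1, Igf2, Slc6a13, Slc22a6, Aldh1a2, Lum and Ogn), and the top 5% per section were called meningeal-high, 77, 118, 115 and 72 spots. All 4 globins passed the filter and all 4 were called higher there, against 13.3% of 15298 genes. The median of their log2 differences was 3.21, beside a median of -0.02 over all genes tested.

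Hba-a2 was at 27.7, 24.7, 22.6 and 15.5 CPM in the meningeal-high spots of sections 1 to 4 and at 0.94, 2.34, 4.25 and 1.76 CPM in the other spots. The difference was 3.48 ± 0.36 on the log2 scale (SE, n = 4, edgeR adjusted p = 4.6e-07), and the groups did not overlap. Hba-a1 was at 21.4, 23.4, 14.3 and 1.93 CPM inside and at 0.76, 1.13, 5.38 and 0.64 CPM outside, a difference of 3.43 ± 0.49 (edgeR adjusted p = 3.5e-05). Each section was higher inside, but the meningeal-high spots of section 4, with 1 Hba-a1 UMI, lay below the other spots of section 3. The Hba-a1 fold was 28.2, 20.7, 2.65 and 3.02 in sections 1 to 4, so its size differed widely between sections. Of the 24 Hba-a1 UMIs inside in section 1, 22 lay in 1 spot.

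Hbb-bs was at 46.4, 61.1, 64.3 and 23.2 CPM inside and at 2.55, 6.09, 20.8 and 3.09 CPM outside, a difference of 2.99 ± 0.29 (edgeR adjusted p = 2.4e-07). The groups did not overlap. Hbb-bt was at 8.03, 9.10, 8.34 and 3.87 CPM inside and at 0.54, 0.85, 3.26 and 0.96 CPM outside, a difference of 2.76 ± 0.50 (edgeR adjusted p = 0.00036), again without overlap. Without the 2 spots of each section with the most globin UMIs, an alternative chosen after seeing the data, the differences were 3.17 for Hba-a1, 3.41 for Hba-a2, 2.72 for Hbb-bs and 2.72 for Hbb-bt, all called. With each spot's globin UMIs limited to the section's 99th percentile, they were 2.65, 3.0, 2.27 and 2.83 in the same order, and without section 3 they were 4.29, 3.91, 3.62 and 3.38, again all called. The fold of the 4 globins together was 21.6 in section 1, 11.4 in section 2, 3.25 in section 3 and 6.89 in section 4. Single spots carried much of it in sections 1 and 4. In section 1, 2 spots held 82 of the 116 globin UMIs inside. In section 4, 1 spot held 12 of the 23 globin UMIs inside and 10 of the 12 of Hbb-bs. A beta UMI was found there in 4.17% of meningeal-high spots and 4.12% of other spots. Section 3 had the smallest fold, with the highest level outside the meningeal-high spots, where its richest spots lay.

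These spots held 2.69 to 4.77% of all UMIs but 52.0%, 33.0%, 11.4% and 16.0% of the globin UMIs of sections 1 to 4. A globin UMI was found in 27.3%, 44.1%, 17.4% and 12.5% of them, against 6.03%, 11.6%, 8.81% and 6.40% of other spots. After thinning to 5000 UMIs the shares were 17.6%, 28.4%, 10.7% and 7.32% inside and 2.22%, 3.51%, 4.77% and 3.21% outside. The higher share was thus seen in each section at equal depth. In section 4, however, only 41 meningeal-high spots entered the thinning and 31 had under 5000 UMIs. No interval is given for the thinned shares, so the difference in section 4 is uncertain.

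Several vessel and border genes were higher in the same spots. Of 10 mural genes 7 were called higher, led by the smooth muscle genes Myh11 (4.21 ± 0.25), Tagln (4.06 ± 0.18) and Acta2 (4.04 ± 0.13; log2 difference ± SE). Of 8 arterial genes 6 were called higher, with Mgp, a matrix protein, at 3.49 ± 0.09, and of 18 endothelial genes 17 were, with a list median of 1.23. Of 6 capillary genes 0 were called by edgeR (2 at an unadjusted p under 0.05, 0 by DESeq2), and their median was -0.02. This list followed endothelial mRNA weakly. In the endothelial-high spots described below, 2 of the 6 were called higher with a median of 0.17, against 16 of 18 endothelial genes with a median of 0.77. Its lack of calls here therefore says little about capillaries. All 6 border macrophage genes were higher, with a median of 3.54, and 3 of 6 leukocyte genes tested were, namely Camp, S100a9 and S100a8, which neutrophils express. The leukocyte list holds 12 genes. Camp (23 UMIs in all) and the macrophage gene Ms4a7 (52 UMIs) had at most 0.38 and 0.67 CPM in any section. Genes this rare pass the filter on low counts mainly where a spot group is high, so both counts are descriptions. Of the red cell lists, 3 of 5 tested erythroid genes (Tent5c, Ube2l6 and Tspan33) and 1 of 8 heme synthesis genes (Alas1) were called higher, and the heme synthesis count is about the share of all genes called. Epithelial markers of the choroid plexus were higher too (10 of 10, median 4.14), as were ependymal genes (6 of 6, median 2.46). Of the meningeal-high spots, 35 of 77 in section 1 and 30 of 72 in section 4 were also choroid plexus-marker spots, described below. In sections 2 and 3 there were 0 and 1. Without choroid plexus-marker spots the 4 globin differences were 2.99 to 3.67, all called. The part of each cell type in the globin difference was not tested.

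**Figure D4:**
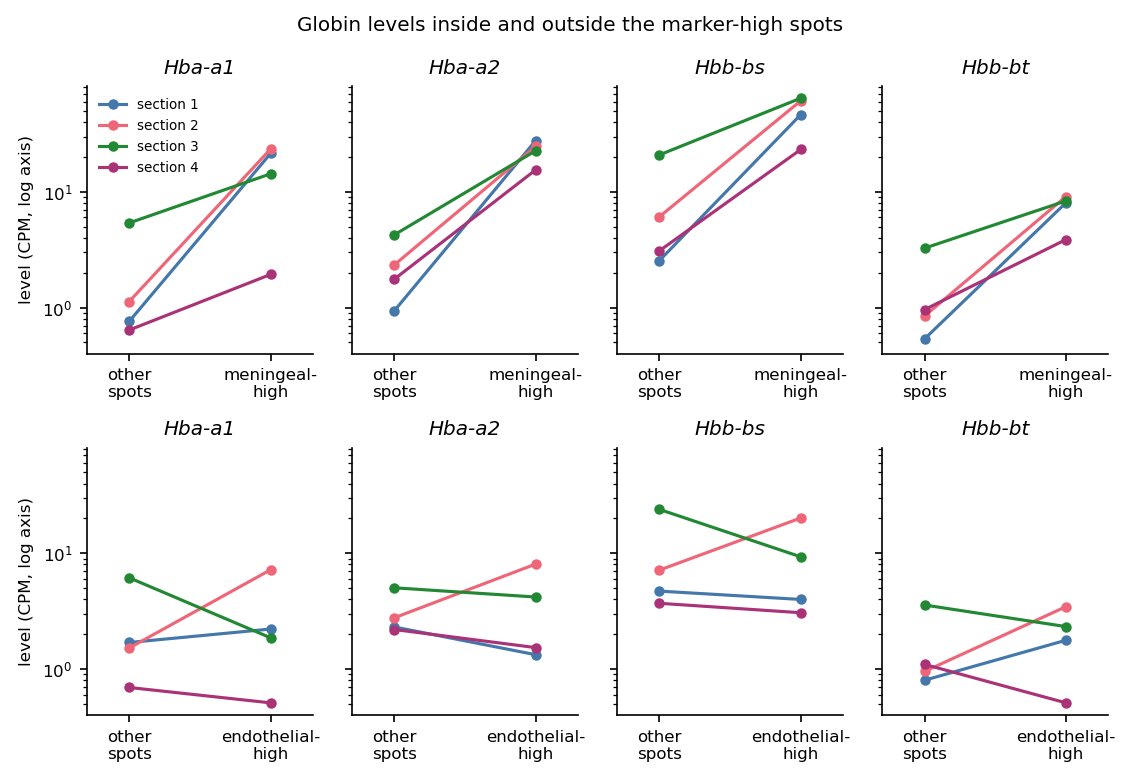
Level of each globin gene (vertical axis, CPM, log scale) in the other spots and in the marker-high spots of each section (lines join the 2 values of a section), for meningeal-high spots (top row) and endothelial-high spots (bottom row). In the top row all 16 lines rise, and in the bottom row the lines of section 2 rise while those of sections 3 and 4 fall.

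No globin difference was called in spots rich in endothelial mRNA. Spots in the top 10% for Cldn5, a tight junction protein, and Flt1, a receptor for vascular endothelial growth factor, were called endothelial-high, 154, 236, 229 and 143 spots. In them 16 of 18 other endothelial genes were called higher, with a median of 0.77. All 10 meningeal markers were also called higher, with a larger median of 1.41. So were 8 of 10 mural genes (median 0.96) and 6 of 6 astrocyte genes (median 0.24), so these spots were not endothelial alone. None of the 4 globins tested was called (0 at an unadjusted p under 0.05, 0 by DESeq2), against 2.62% of 14863 genes called in either direction.

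Hbb-bs was at 3.99, 20.2, 9.31 and 3.07 CPM in the endothelial-high spots of sections 1 to 4 and at 4.71, 7.16, 23.9 and 3.70 CPM in the other spots. It was higher inside in section 2 and lower in the other 3 sections. The log2 difference was 0.19 ± 0.23 (edgeR adjusted p = 0.84), a fold of 1.14 with a 95% interval of 0.83 to 1.57. The folds of sections 1 to 4 were 0.85, 2.82, 0.39 and 0.83, and the SE with DESeq2 was 0.59. The interval is therefore too narrow for the spread between sections. Hba-a1 differed by 0.61 ± 0.38 and Hba-a2 by 0.48 ± 0.30 (edgeR adjusted p = 0.55 for both), and Hbb-bt by 0.59 ± 0.41 (edgeR adjusted p = 0.63). Intervals of the same kind leave room for folds of up to 2.54 (Hba-a1) and 2.64 (Hbb-bt). They share this limit, so folds of that size or larger were not excluded, nor were Hbb-bs folds above 1.57.

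The globin fold in endothelial-high spots was 0.98, 3.14, 0.46 and 0.73 in sections 1 to 4. The direction depended on single sections: the log2 differences of Hba-a1, Hba-a2, Hbb-bs and Hbb-bt were -0.82, -0.43, -0.93 and -0.18 without section 2. Without section 3 they were 1.49, 0.75, 0.89 and 1.20. In section 3, 2 spots held 294 and 127 of the 768 globin UMIs outside the endothelial-high spots. With each spot's globin UMIs limited to the section's 99th percentile, the differences were 0.91, 0.36, 0.39 and 1.22, none called. Endothelial-high and meningeal-high spots overlapped in 12, 38, 30 and 9 spots, which was 6.29 to 16.1% of the endothelial-high and 12.5 to 32.2% of the meningeal-high spots. Without meningeal-high and choroid plexus-marker spots, Hbb-bs was lower in the endothelial-high spots by 0.98 (edgeR adjusted p = 0.016), and Hba-a1, Hba-a2 and Hbb-bt were at -1.42, -0.64 and -0.02 and not called. The 2 richest spots of section 3 stayed among the other spots in this comparison.

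Choroid plexus-marker spots, with at least 3 of 10 epithelial markers such as Folr1 and Kl, numbered 189 in section 1 and 76 in section 4 but 4 and 7 in sections 2 and 3, so 2 sections were tested. The 4 globins together were at 7.49 CPM inside and 9.83 CPM outside in section 1 (25 and 198 UMIs) and at 6.75 and 7.50 CPM in section 4 (4 and 140 UMIs). Both sections were slightly lower inside. None of the 3 globins that passed the filter was called (0 at an unadjusted p under 0.05, 0 by DESeq2), against 4.75% of 14608 genes called in either direction. The log2 difference was -0.66 ± 0.60 for Hbb-bs, 0.66 ± 0.68 for Hba-a2 and -0.96 ± 1.26 for Hbb-bt (SE, n = 2, edgeR adjusted p = 0.77, 0.81 and 0.87), and the 95% interval of the Hbb-bs fold ran from 0.28 to 1.43.

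Of the 77 spots with at least 3 globin UMIs, 31 were meningeal-high, 17 endothelial-high and 43 neither of these nor choroid plexus-marker spots. The 43 held 642 of the 977 globin UMIs of the 77, and 517 of the 642 were in section 3. By section, 4 of 6, 20 of 39, 5 of 23 and 2 of 9 such spots were meningeal-high. Section 3 thus differed from sections 1 and 2 in where its globin-rich spots lay, and this was not tested.

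The genes that moved with beta globin were read from the same comparison of beta-globin-high spots. Of the 10 meningeal markers 8 were called higher, with a median of 1.43, and 4 of 10 mural genes were (Tagln, Acta2, Myh11 and Vtn). Of the 8 markers, 5 were higher inside in each section and 3 (Slc6a13, Dcn and Ogn) were not. Myh11 was at 20.3 and 11.8 CPM inside and 2.77 and 3.34 CPM outside in sections 1 and 2, but at 3.32 and 0.94 CPM inside and 3.57 and 2.36 CPM outside in sections 3 and 4. Dcn was likewise lower inside in section 4 (5.67 against 8.35 CPM). Of 18 endothelial genes 0 were called by edgeR (1 at an unadjusted p under 0.05, 0 by DESeq2), of 5 erythroid genes 0 (0 and 0), and of 8 heme synthesis genes 0 (1 and 0). With spots of at least 1 beta UMI, 6 of the 10 meningeal markers and 3 of the 10 mural genes were called higher. Under this rule 7 of 7 oligodendrocyte genes, which make myelin, were called lower, with a median of -0.46. The share of all genes called lower under this rule is not given, so this count is a description. In the beta-globin-high spots 0 of 7 were called by edgeR (0 at an unadjusted p under 0.05, 0 by DESeq2), with a median of 0.05. There, 24 of 15068 genes were called lower. The rule of at least 1 beta UMI takes no account of depth. Median depth in sections 1 to 4 was 16551, 14958, 12852 and 14982 UMIs inside and 14843, 15319.5, 8636.5 and 12084.5 outside. The part of depth in the oligodendrocyte difference was not tested. The 5 largest rises that had the same direction in every section were Hba-a1, Igkc (3.99 ± 0.42), Hba-a2, S100a9 (2.55 ± 0.50) and Prl (2.48 ± 0.16). Igkc, the immunoglobulin kappa constant gene, rested on section 2, where 218 of its 314 UMIs lay in 1 spot, and without section 2 it was 1.57 higher (edgeR adjusted p = 0.77). S100a9, a neutrophil protein, had 5 to 36 UMIs per section and was not called without section 1, 2 or 4 (2.27, 2.39 and 2.73, edgeR adjusted p = 0.064, 0.14 and 0.13). Prl, the pituitary hormone prolactin, had 1342 of its UMIs in section 4 and 4 to 17 in the others, and without section 4 it was 3.0 higher (edgeR adjusted p = 0.094).

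The 5 largest falls were smaller. Ido1, an enzyme of tryptophan breakdown, had a log2 difference of -0.83 ± 0.14, followed by Lrrc10b (-0.69 ± 0.11), B3gnt2 (-0.61 ± 0.12), Rbp4, a retinol carrier (-0.56 ± 0.11), and Pcp4, a calmodulin regulator (-0.56 ± 0.06). Pcp4 was at 2186, 1802, 2142 and 1709 CPM inside and at 2670, 2754, 3096 and 2879 CPM outside, and the groups did not overlap. Ido1 was at 14.7, 18.7, 15.8 and 14.2 CPM inside and at 30.8, 25.0, 34.3 and 28.3 CPM outside, also without overlap. With spots of at least 1 beta UMI these falls were -0.77 for Ido1 and -0.50 for Pcp4, both called, and Rbp4 was no longer called (edgeR adjusted p = 0.074). With 1 section left out, Lrrc10b and Pcp4 remained called each time. Ido1 was not called without section 1 (-0.77, edgeR adjusted p = 0.052), nor B3gnt2 without section 1 or 4 (-0.64 and -0.50, edgeR adjusted p = 0.067 for both), nor Rbp4 without section 2, 3 or 4 (-0.59, -0.52 and -0.48, edgeR adjusted p = 0.13, 0.069 and 0.15). DESeq2 did not call Lrrc10b (adjusted p = 0.48) or Rbp4 (adjusted p = 0.14).

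By likeness over spots, the gene nearest to the summed globins among 10881 genes with at least 100 UMIs in every section was Epha8, an ephrin receptor, with a mean Pearson correlation of 0.165 over the 4 sections. It rested on section 1 (0.549, against at most 0.069 elsewhere), as did Hps6 and Swap70. Igf2 (0.149), Dcn (0.145), Slc13a3, Apod, Vtn, Mgp and Col1a2 followed, with 0.101 to 0.126 for the last 5. In section 3 each of these 7 had a correlation of at most 0.022. These values are weak and come from sparse counts of spots that share a library, and they are given as a description.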

How the data were processed

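UMIs were measured in 4 brain sections, 1 sample each. The authors aligned and counted the reads with Space Ranger (version 1.3.1 in the file headers, mm10 in the submitters' processing notes) and deposited the unnormalized UMI counts of each gene in each spot. Whether reads that match several copies were dropped is not given in the sources used here. Spots with under 500 UMIs were left out (1 to 26 per section), and CPM are UMIs scaled to 1000000. No spot positions or cell types were used, and the other experiments of the study were not analysed here.

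Spots were scored by the markers' UMIs beyond those predicted from the spot's total, divided by the square root of the prediction. The deposited counts were added up inside and outside each group of spots, by section, and tested with edgeR 4.0.16 in R 4.3.3. TMM scaling, filterByExpr and the quasi-likelihood test were used with a term for section, and p-values were adjusted over all genes by Benjamini-Hochberg with a threshold of 0.05. The section is the unit shared by both spot groups, so the same number pairs them. Standard errors are the log2 fold change over the square root of F, and fold intervals are 95% normal intervals. F uses a spread moderated over genes, so both can be narrower than the spread of the sections. The genes that picked the spots were left out of calls. On simulated counts with 200 genes changed by a log2 fold of 1, the test called 126 of them for the meningeal-high spots (15308 genes, 6 unchanged genes called). It called 167, 58 and 153 for the endothelial-high, choroid plexus-marker and beta-globin-high spots (14865, 14618 and 15070 genes, 10, 4 and 6 unchanged genes called). The changed genes were drawn at random over all genes tested, with the spread typical of their abundance. Recovery of genes as concentrated in single spots as the globins was not simulated.

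Genes named are the 5 members, members of the gene lists, the 10 genes with the highest mean correlation to the summed globins, and the 5 largest rises and 5 largest falls in beta-globin-high spots with an adjusted p under 0.05 and 1 direction in all 4 sections. Ptgds was named after its values were seen. The members and lists were chosen with earlier results of these data known. Alternatives were DESeq2 1.42.0, total-UMI scaling, no filter, no block, all spots, capped UMIs, other shares of spots, other markers, leaving out other tissue and each section in turn. Spots with at least 1 or 3 beta UMIs and the removal of the 2 highest spots were added after the data were seen. Promoter sequences are from RefSeq.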

Additional observations from a re-analysis of the deposited data

Results flagged for a closer look

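Of 39 per-section values of the globins, 3 had 1 section whose gap to the nearest other section was a large part of the range (Dixon's test at 95% for 4 samples), where chance alone gives about 1.95. The Hbb-bt level of section 3 was 3.45 CPM, against 0.89 to 1.19 CPM in the others. The share of spots with an alpha-chain UMI in section 2 was 5.56%, against 2.96 to 3.21% in the others. The alpha-chain fold in the endothelial-high spots of section 2 was 3.56, against 0.54 to 0.89 in the others.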

How the results depend on the processing

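In meningeal-high spots the 4 globins, and in beta-globin-high spots the 2 alpha globins, were called higher under all alternatives run; the largest adjusted p was 0.0143 (Hbb-bt) and 0.0130 (Hba-a1). Over sections left out in turn, the meningeal-high differences ranged from 2.89 to 4.29 (Hba-a1), 3.03 to 3.91 (Hba-a2), 2.61 to 3.62 (Hbb-bs) and 2.40 to 3.38 (Hbb-bt), and the beta-globin-high ones from 4.05 to 4.86 (Hba-a1) and 3.26 to 4.03 (Hba-a2). With each spot's globin UMIs limited to the section's 99th percentile, the latter were 2.81 and 2.42, and the meningeal-high ones 2.65, 3.0, 2.27 and 2.83.

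In endothelial-high spots the direction was not stable. With 1 section left out the differences ranged from -0.82 to 1.49 (Hba-a1), -0.43 to 0.75 (Hba-a2), -0.93 to 0.89 (Hbb-bs) and -0.18 to 1.20 (Hbb-bt). Hbb-bs was at -0.069 with DESeq2. With Flt1 alone Hba-a1, Hba-a2 and Hbb-bs were at -0.53, -0.068 and -0.78. Without meningeal-high and choroid plexus-marker spots Hba-a1, Hba-a2, Hbb-bs and Hbb-bt were at -1.42, -0.64, -0.98 and -0.020. Of all these, only the last Hbb-bs value was called. In choroid plexus-marker spots Hbb-bs was at 0.15 with limited UMIs and 0.72 with at least 2 of 10 markers, neither called. Leaving out a section there leaves 1 and could not be fitted. The cause of these turns was not tested. Of the 8 other genes named for beta-globin-high spots, DESeq2 did not call Igkc, Lrrc10b and Rbp4, and without the block none was called (adjusted p of 0.21 to 1.0); all kept their direction.

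Counts over all genes moved more. Main counts of genes higher and lower were 336 and 54 (endothelial-high), 2037 and 1687 (meningeal-high), 653 and 41 (choroid plexus) and 59 and 24 (beta-globin-high). With no replicate block they were 5 and 0 for endothelial-high, 343 and 2 for choroid plexus and 3 and 0 for beta-globin-high, and 826 were lower for meningeal-high. DESeq2 gave 128 and 4, 419 and 7, and 31 and 15 for the same 3 groups, and 1035 lower for meningeal-high. Without a filter, 191 (endothelial-high), 185 (choroid plexus) and 77 (beta-globin-high) were lower, and 102 higher in the last. Sections left out in turn gave 115 to 342 higher and 5 to 91 lower (endothelial-high), 1374 to 1853 and 963 to 1222 (meningeal-high), and 13 to 105 and 5 to 31 (beta-globin-high). For endothelial-high spots, 29 were lower with the top 20%, 30 with Flt1 alone, and 122 were higher and 15 lower without meningeal-high and choroid plexus spots. For choroid plexus, 63 were lower with 2 markers, 1296 higher and 744 lower with 5, 408 lower over all 4 sections and 190 higher without meningeal-high spots. For beta-globin-high spots, 8 were lower with the top 5%, 676 higher and 351 lower with the top 20%, 655 and 470 with spots picked on alpha chains, 7 and 15 without meningeal-high and choroid plexus spots, 31 higher with at least 1 beta UMI and 14 lower with at least 3. The share of spots with a globin UMI was 9.06% as deposited and 4.02% after thinning. Without the top 1% of spots, Hba-a1 averaged 0.83 CPM (2.55 with them), Hba-a2 1.60 (3.14), Hbb-bs 4.18 (9.79) and Hbb-bt 0.59 (1.64). With 4 UMIs in all, depth limits what can be said of Alas2.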
